A study of Ovis aries with 32 samples.

Results

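Complement genes were followed in sheep fed succinic acid. The group covers the fluid-phase components C3, C5, C6, C7, C8A, C8B and C9, the protease factor B (CFB) and the regulatory protease factor I (CFI). Members were chosen by gene name alone. Of the 9 names listed, 7 were found, each on 1 of the 30722 rows of the expression table, of which 17372 carry a gene name. No row was named C3 or C7, and these genes were not analysed here. The identifiers were ENSOARG00020003946 for C5, ENSOARG00020007044 for C6, ENSOARG00020021418 for C8A, ENSOARG00020022425 for C8B, ENSOARG00020008908 for C9, ENSOARG00020009870 for CFB and ENSOARG00020023478 for CFI.

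Male Tan sheep, a fat-tailed breed, entered the feeding trial at 3 months of age. The SA group received a pellet with succinic acid at 1% of dry matter (a metabolite of the mitochondrial tricarboxylic acid cycle), and the CON group received the basal pellet without it. Feeding lasted 60 days after 10 days of adaptation, with 12 of the 24 sheep on each diet, and 4 sheep per diet were sequenced. Messenger RNA was read in tissue labelled liver, tail adipose tissue (tail fat), hypothalamus and pituitary, giving 32 libraries in 8 groups of tissue and diet. Values are transcripts per 1000000 (TPM), an abundance per transcript length that is relative to the rest of the library. TPM keeps no record of depth, so the sequencing depth behind each value is unknown.

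Complement is a cascade of plasma proteases and pore-forming proteins, and hepatocytes make most of its soluble proteins. The alternative pathway is amplified by factor B, which supplies the protease part of the C3 and C5 convertases. Factor I cuts C3b and C4b and so limits amplification. Cleavage of C5 releases the inflammatory peptide C5a, and the remaining C5b gathers C6, C7, C8 and C9 into the membrane attack complex. The C8 protein is built from separately encoded alpha, beta and gamma chains, of which C8A encodes the alpha and C8B the beta chain.

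The liver libraries were not alike in make-up between the diets. Of all TPM, 51.7% to 70.9% came from the mitochondrial genome in the SA livers, against 20.2% to 27.8% in the CON livers. Selenoprotein P (SELENOP) stood at 241 to 773 TPM in SA and at 4282 to 5758 TPM in CON, and its neighbour CCDC152 at 168 to 842 TPM in SA, while it was listed at 0 in every CON liver. All SA and no CON livers had these features, so diet and library composition cannot be told apart in liver. The summed level of 9 hepatocyte markers found of 10 ranged from 7283 to 29820 TPM in SA and from 96826 to 111113 TPM in CON. Markers of macrophages (8 of 8 found) summed to 88.6 to 194 TPM in SA and 216 to 552 TPM in CON, with P2RY12 under 0.5 TPM in both diets. Fibroblast and stellate cell markers (6 of 6) summed to 11.3 to 24.0 TPM in SA and 71.4 to 142 TPM in CON, and endothelial markers (5 of 5) to 9.35 to 18.8 TPM in SA and 70.65 to 95.6 TPM in CON. The part of these differences in the results for liver was not tested. In bulk tissue, fewer cells of a type and less RNA per cell cannot be told apart.

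Liver, the main source of complement in plasma, was compared between the diets first. All 7 genes fell in the SA livers, and for each of them every SA liver lay below every CON liver. The genes of the C8 chains fell furthest, to 5.38% (C8A) and 4.40% (C8B) of their CON means, and the other 5 stood at 26.3% (CFI) to 38.5% (C5). These calls stand on a wide background. In limma, 59.1% of the 11582 genes tested in liver were lower past the adjusted threshold of 0.05, 5.21% were higher, and for 54.2% every SA library lay below every CON library. The median change over all genes tested was −0.83 on the log2(TPM + 1) scale, and the median over the 7 genes was −1.89. Calls of single genes were thus common in these livers, and the sizes of the changes are set against this background below. Without SA 2, which had the largest mitochondrial share and only 3933 TPM of albumin, all 7 genes still passed, at −1.31 (C5) to −4.27 (C8B).

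Factor B was the most abundant of the 7 genes. CFB stood at 643, 180, 646.5 and 423 TPM in SA livers 1 to 4, against 1649, 1546, 1422 and 1532 TPM in CON livers 1 to 4. The highest SA liver reached less than the lowest CON liver, and SA 2 was the lowest. The means were 473 ± 222 TPM in SA and 1537 ± 92.8 TPM in CON (SD, n = 4 each), a log2 change of −1.86 (SE 0.42, limma adjusted p = 0.00374).

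Factor I, the protease that inactivates C3b, had the widest relative spread of the 7 genes among the SA livers. CFI stood at 253, 50.1, 287 and 196 TPM in SA livers 1 to 4, against 663, 880, 869 and 576 TPM in CON livers 1 to 4. The diets did not overlap, and SA 2 lay far below the other SA livers. The means were 196 ± 105 TPM in SA and 747 ± 152 TPM in CON, a log2 change of −2.16 (SE 0.52, limma adjusted p = 0.00516).

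C5, the component whose cleavage starts the terminal pathway, changed least. It stood at 164, 85.5, 83.8 and 107 TPM in SA livers 1 to 4, against 306, 306, 309.6 and 222 TPM in CON livers 1 to 4. CON 1 to 3 were nearly level and CON 4 was lower, still above every SA liver. The log2 change was −1.41 (SE 0.30, limma adjusted p = 0.00248), with means of 109.9 ± 37.3 TPM in SA and 286 ± 42.8 TPM in CON.

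C6 is the first protein to join C5b. It stood at 150.7, 40.1, 93.0 and 77.5 TPM in SA livers 1 to 4, against 277, 299, 316 and 330.35 TPM in CON livers 1 to 4. SA 1 was the highest and SA 2 the lowest SA liver, and the CON livers lay close together. The means of 90.3 ± 46.0 TPM in SA and 306 ± 22.8 TPM in CON gave a log2 change of −1.89 (SE 0.38, limma adjusted p = 0.00191).

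C8A was even within each diet and far apart between them. It stood at 9.97, 10.6, 6.81 and 11.2 TPM in SA livers 1 to 4, against 193, 182, 156 and 186 TPM in CON livers 1 to 4. SA 2, the lowest SA liver for CFB, CFI, C6, C8B and C9, had the second highest SA value here. The means were 9.63 ± 1.94 TPM in SA and 179 ± 16.2 TPM in CON. The log2 change was −4.10 (SE 0.23, 95% interval −4.61 to −3.58, limma adjusted p = 1.18e-05), and 0.181% of the genes tested in liver had a lower change.

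C8B was also far apart between the diets, but less even among the CON livers. It stood at 15.9, 10.9, 14.6 and 19.9 TPM in SA livers 1 to 4, against 482, 316, 252 and 344 TPM in CON livers 1 to 4. The lowest CON liver, CON 3, lay far above the highest SA liver, SA 4. The means were 15.3 ± 3.71 TPM in SA and 349 ± 97.0 TPM in CON. The log2 change was −4.41 (SE 0.29, 95% interval −5.05 to −3.76, limma adjusted p = 2.21e-05), and 0.095% of the genes tested had a lower change. For the other 5 genes that share was 5.60% (CFI), 9.71% (C6), 10.4% (CFB), 12.1% (C9) and 22.9% (C5).

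C9, which polymerises into the wall of the pore, was the second most abundant of the 7 genes. It stood at 458, 145, 229 and 312 TPM in SA livers 1 to 4, against 844, 1274, 782 and 802 TPM in CON livers 1 to 4. CON 2 stood above the other CON livers, and no SA liver reached the CON range. The means were 286 ± 134 TPM in SA and 926 ± 234 TPM in CON, a log2 change of −1.78 (SE 0.39, limma adjusted p = 0.00296).

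**Figure D1:**
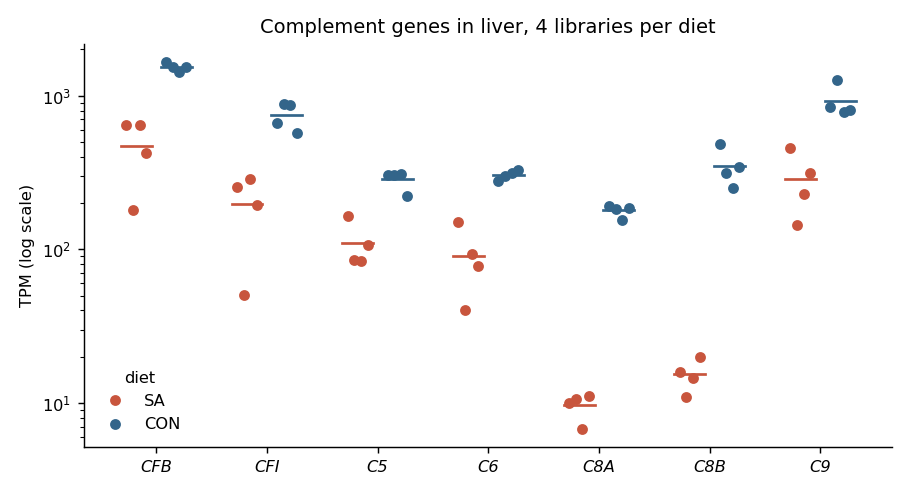
TPM (log scale) of the 7 complement genes in the 4 SA and 4 CON livers, with 1 point per library and a line at each group's mean. No gene's diets overlap; C8A and C8B are separated furthest, at 6.81 to 19.9 TPM in SA and 156 to 482 TPM in CON.

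Because a larger mitochondrial share lowers the TPM of every other gene, the libraries were also rescaled in a pair of ways. After quantile normalization, which gives all libraries 1 distribution, 6 of the 7 genes were still lower past the threshold (21.1% of all genes tested), and C5 was not (change −0.39, adjusted p = 0.237). With mitochondrial and ribosomal RNA taken out and the rest rescaled, 3 of the 7 passed as lower (14% of all genes tested). These were C6 (−0.80), C8A (−3.09) and C8B (−3.37), and the adjusted p in limma was 0.363 for C5, 0.0646 for C9, 0.0546 for CFB and 0.0511 for CFI. The changes of C8A and C8B after quantile normalization were −3.09 and −3.45. All 7 genes kept a lower value in SA under both scalings, where the median change of all genes was −0.09 and 0.00.

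A ratio of genes within a library is not altered by the share of other transcripts. Each gene was therefore also expressed as a share of the summed TPM of the 7 genes, a sum of 522 to 1695 TPM in the SA livers and 3991 to 4802 TPM in the CON livers. C8A held 1.02% ± 0.70 of the sum in SA and 4.15% ± 0.43 in CON (SD, n = 4 each), and C8B 1.46% ± 0.55 in SA and 8.06% ± 2.19 in CON. The diets did not overlap for either gene. The log2 ratio differed by −2.11 for C8A and −2.42 for C8B (exact two-sided permutation p = 0.0286 for each, the smallest that 4 against 4 allows, and adjusted p = 0.1 over the 7 genes, which does not pass). CFB held 39.2% ± 5.70 of the sum in SA and 35.6% ± 2.79 in CON, C9 24.7% ± 5.25 in SA and 21.2% ± 3.58 in CON, and CFI 15.7% ± 4.79 in SA and 17.2% ± 3.13 in CON. These 3 genes, C5 and C6 overlapped between the diets (exact permutation tests, adjusted p from 0.267 to 0.543).

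C5, the gene that changed least, was added as a denominator after the data were seen. Differences of C8A and C8B against it are therefore larger than those against the sum. Set against C5 alone, the ratio of C8A to C5 was 0.0666 to 0.134 in the SA livers and 0.505 to 0.840 in the CON livers. That of C8B to C5 was 0.103 to 0.194 in SA and 0.815 to 1.57 in CON. The log2 differences were −2.69 for C8A and −3.00 for C8B (exact two-sided permutation p = 0.0286 for each, adjusted p = 0.0857 over 6 genes, not passing). The ratio of C9 to C5 overlapped, at 1.68 to 2.91 in SA and 2.52 to 4.16 in CON. The ratio of C8A to C8B was 0.468 to 0.966 in SA and 0.400 to 0.617 in CON, so the transcripts of the alpha and beta chains of C8 stood in overlapping proportions in both diets. C8A and C8B are adjacent genes in the RefSeq annotation of the sheep genome.

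**Figure D2:**
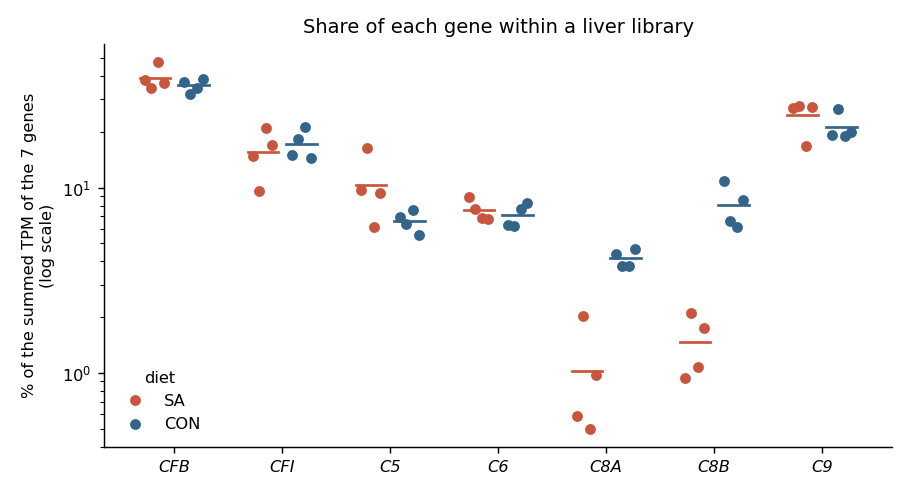
Percentage of the summed TPM of the 7 genes held by each gene (log scale) in the 4 SA and 4 CON livers, with 1 point per library and a line at each group's mean. C8A and C8B hold at most 2.10% each in SA and at least 3.79% each in CON, without overlap, whereas the other 5 genes overlap.

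The rest of the pathway was read from a list of 47 further complement genes, of which 31 were found by name and 26 passed the filter in liver. Of these 26, 18 fell past the threshold, none rose and 8 did not pass in limma, where 59.1% of all genes tested were lower. Their median change was −1.36, against −0.83 over all genes tested. With mitochondrial and ribosomal RNA taken out, 7 passed as lower (14% of all genes) and 3 as higher (15.8%). Of the genes that start the classical and lectin pathways, 8 of 11 fell. They include the C1 proteases C1S (change −3.03), at 141 ± 28.0 TPM in SA and 1152 ± 131 TPM in CON, and C1R (−2.35). The protease C2 (−2.24), adjacent to CFB in the RefSeq annotation, stood at 55.7 to 177 TPM in SA and 588 to 675 TPM in CON. The lectin pathway protease MASP1 (−1.32) and the collectin COLEC10 (−1.64) fell, as did C1QA (−1.13, adjusted p = 0.0367), a chain of C1q. After quantile normalization MASP1 (−0.22), COLEC10 (−0.70) and C1QA (−0.05) did not pass.

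Of the 6 regulators tested, 3 fell and 3 did not pass. CD59, the membrane protein that blocks pore formation by C9, stood at 17.5, 6.12, 12.7 and 17.4 TPM in SA livers 1 to 4, against 132, 223, 118 and 145 TPM in CON livers 1 to 4. Its diets did not overlap, and its change of −3.48 (SE 0.36, limma adjusted p = 7.14e-05) lay below those of the other 25 genes. CPN1, the catalytic chain of the anaphylatoxin-trimming carboxypeptidase N, changed by −2.53, and the alternative pathway gene CFHR5 by −1.77 (−0.78 and adjusted p = 0.0525 after quantile normalization). All 6 receptor genes tested fell, against 59.1% of all genes. After quantile normalization C3AR1 (−0.48, adjusted p = 0.281) and VSIG4 (−0.49, adjusted p = 0.103) did not pass, and with mitochondrial and ribosomal RNA taken out ITGB2 alone passed (−1.68, adjusted p = 0.0389). The receptors that fell included the C5a receptor C5AR1 (−1.70), at 1.29 TPM in SA and 6.29 TPM in CON, and the chains of complement receptor 3, ITGB2 (−2.29) and ITGAM (−1.62). CD93, described in other species as a C1q-binding surface protein, changed by −1.85. These receptors are leukocyte or endothelial genes, and the macrophage and endothelial markers given above were lower in the same libraries. Hepatocyte and fibroblast markers were lower there too, and the part of any cell type in the receptor values was not tested.

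A few liver complement genes did not pass. Factor D (CFD), the protease that activates factor B, averaged 68.6 ± 26.6 TPM in SA and 66.5 ± 12.3 TPM in CON (change −0.02, 95% interval −0.73 to 0.69, limma adjusted p = 0.960). C4BPA, the alpha chain of the C4b-binding protein, averaged 1233 ± 645 TPM in SA, with 337 TPM in SA 2, and 1186 ± 198 TPM in CON (change −0.18, 95% interval −1.32 to 0.97, adjusted p = 0.775). Its partner chain C4BPB averaged 188 ± 94.6 TPM in SA and 91.0 ± 25.6 TPM in CON (0.83, adjusted p = 0.186), and the lectin pathway protease MASP2 158 ± 36.5 TPM in SA and 137 ± 13.4 TPM in CON (0.17, adjusted p = 0.583). Vitronectin (VTN), an inhibitor of membrane attack complex insertion, averaged 2394 TPM in SA and 3712 TPM in CON (−0.68, adjusted p = 0.2, and 0.34 after quantile normalization). C4BPB, MASP2, VTN, C3AR1 and VSIG4 were singled out after their values were seen. After quantile normalization CFD (1.03), MASP2 (1.20) and C4BPB (1.78) passed as higher (16.3% of all genes tested), and 10 of the 26 genes passed as lower (21.1%). The same 3 genes were the higher ones with mitochondrial and ribosomal RNA taken out. The genes of C4, C1 inhibitor and the gamma chain of C8 were not matched by name and were not analysed here.

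**Figure D3:**
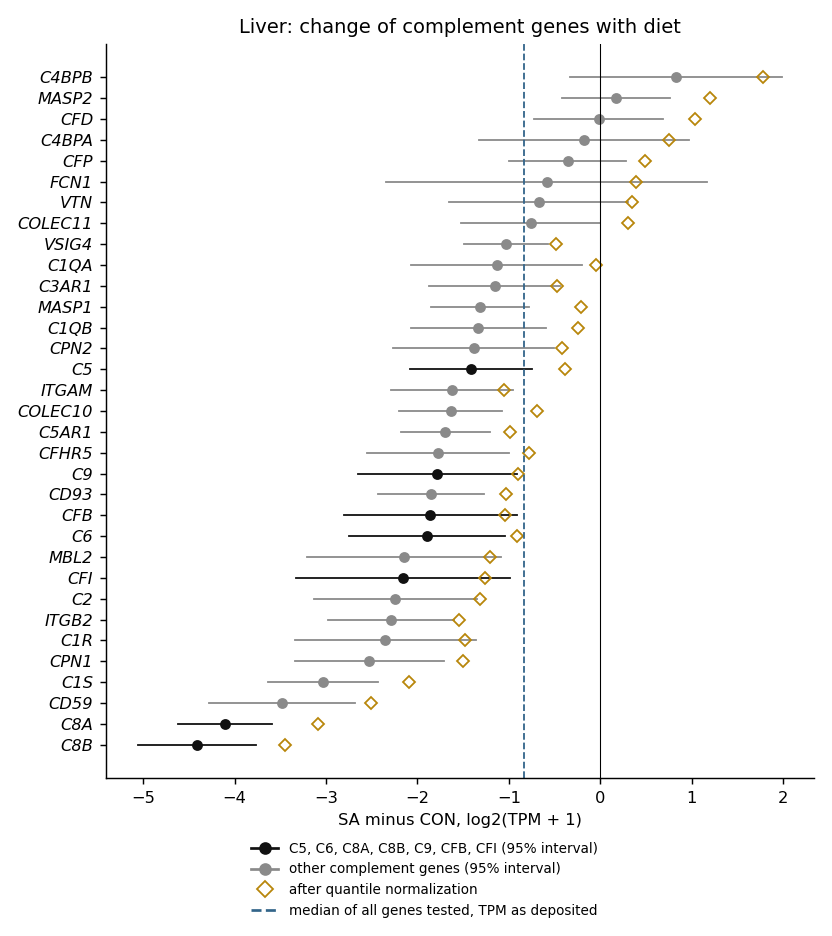
Change of complement genes in liver, SA minus CON, in log2(TPM + 1), with 95% intervals from limma (4 libraries per diet); open diamonds are the same change after quantile normalization, and the dashed line is the median of all genes tested (−0.83). C8B (−4.41), C8A (−4.10) and CD59 (−3.48) lie lowest, and C4BPB (0.83) highest.

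The genes whose profile over the 8 group means lay nearest to each member were sought among 12775 named genes outside the complement lists, as the root-mean-square distance of centred log2(TPM + 1) values. For C8B the nearest of these was coagulation factor IX, F9, at 0.07. F9 stood at 13.2, 16.7, 14.9 and 10.5 TPM in SA livers 1 to 4, against 377, 287, 309 and 290.1 TPM in CON livers 1 to 4. Every SA liver lay below every CON liver, as for C8B and for 54.2% of all genes tested in liver. Likeness to C8B in liver follows from the selection, since the group means include these livers. F9 was also the nearest to C8A (0.29), followed by SERPINA7 (0.38), and STEAP4 was second for C8B (0.32). For C9 the nearest genes were PON1 (0.08) and ITIH1 (0.10), and for C5 they were HABP2 (0.16) and ARG1 (0.17). C6 lay nearest to SLC10A1 (0.17) and CIDEB (0.19), CFB to SLC10A1 (0.20) and HABP2 (0.24), and CFI to ceruloplasmin, CP (0.40), and APOA1 (0.50). Among the 7 genes themselves, C5 and CFB (0.21), C6 and CFB (0.28), C5 and C6 (0.33) and C8A and C8B (0.34) were closest, and CFI lay 1.6 to 2.16 from each of the others. These distances describe 8 group means that share the same libraries and carry no test.

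The tissues were then compared in the 16 CON libraries. All 7 genes were higher in liver than in tail fat (23.3% of the 15929 genes tested), by 6.68 (C6) to 8.95 (C9) on the log2(TPM + 1) scale, with limma adjusted p from 4.48e-14 to 2.73e-11. Below liver the order differed between genes. C6 came next in tail fat, at 2.08 ± 0.90 TPM, above the libraries labelled hypothalamus at 0.24 ± 0.17 TPM (difference 1.29, SE 0.21, limma adjusted p = 3.58e-05, with 14.3% of all genes higher). CFI ran the other way, at 1.48 ± 1.99 TPM in tail fat and 14.8 ± 5.30 TPM in the libraries labelled hypothalamus (difference −2.93, SE 0.44, adjusted p = 1.6e-05, with 53.2% of all genes lower). The other 5 genes did not pass between tail fat and hypothalamus, a contrast in which 67.4% of all genes passed in either direction. No member passed between the libraries labelled hypothalamus and pituitary (13.1% of all genes). The closest there to the threshold was C6 (−0.28, adjusted p = 0.511).

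**Figure D4:**
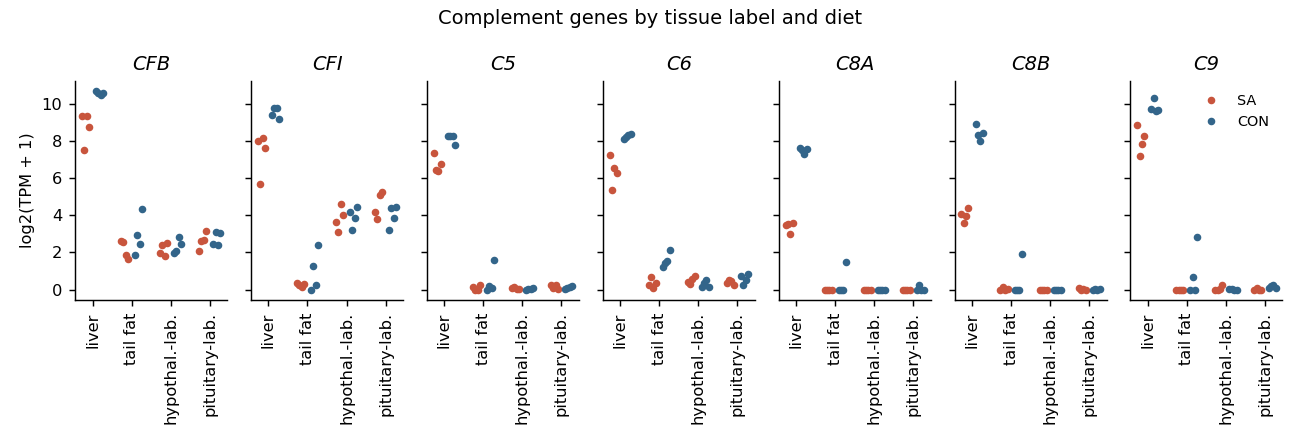
log2(TPM + 1) of the 7 genes by tissue label (hypothal.-lab. and pituitary-lab. are the libraries so labelled), with 1 point per library and 4 libraries per diet in each tissue. Every gene is highest in liver; outside it C5, C6, C8A, C8B and C9 reach at most 6.14 TPM, while CFI reaches 37.1 TPM in the libraries labelled pituitary.

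In tail fat most of the 7 genes were near the bottom of the scale. C5, C8A, C8B, C9 and CFI did not pass the filter of 1 TPM in at least 4 of the 8 libraries and were not tested. In SA, C8A and C9 were listed at 0 in all 4 libraries, C8B reached at most 0.12 TPM, C5 0.20 TPM and CFI 0.28 TPM. In CON 1 to 3 the highest values of these 5 genes were 1.44 TPM (CFI) and 0.57 TPM (C9), both in CON 2.

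The library CON 4 of tail fat stood apart from the others. It held 1.82 TPM of C8A, 2.73 TPM of C8B, 2.05 TPM of C5, 6.14 TPM of C9, 4.30 TPM of CFI and 19.5 TPM of CFB. It also held 473 TPM of albumin (ALB), which was at 0.68 to 1.34 TPM in the SA and 1.54 to 11.3 TPM in the other CON libraries of tail fat. In CON 4 the 7 complement genes stood at 0.576% to 1.27% of their CON liver means (median 0.783%). The hepatocyte genes ALB, TF, FGB, AHSG and SERPINC1 stood at 0.269% to 1.75% of theirs (median 1.13%). In CON 1 to 3 the median was 0.0228% for the complement genes and 0.0101% for these hepatocyte genes. Hepatocyte markers (9 of 10 found) summed to 20.5 to 44.1 TPM in SA and to 14.9 to 813 TPM in CON, the highest being CON 4, with APOB, SERPINC1 and TTR under 0.5 TPM in SA. The part of liver transcripts in the CON 4 values was not tested.

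C6 was the exception in tail fat. It stood at 0.20, 0.59, 0.05 and 0.26 TPM in SA libraries 1 to 4, against 1.35, 1.69, 1.89 and 3.39 TPM in CON libraries 1 to 4. The diets did not overlap, as was so with SA lower for 5.05% of the genes tested, and CON 1 to 3 lay above SA without CON 4. The log2 change was −1.25 (SE 0.31, 95% interval −1.90 to −0.60) and did not pass in limma (adjusted p = 0.0727), where 0.42% of 11185 genes passed as lower and 0.277% as higher. C6 met the filter through its CON libraries alone, since no SA library reached 1 TPM. It passed once mitochondrial and ribosomal RNA were taken out (−1.94, adjusted p = 0.0239, with 8.84% of all genes passing as lower) and in the limma fit of all 32 libraries (adjusted p = 0.00193, with 7.21%). The mitochondrial share of TPM was 25.6% to 50.2% in SA and 22.5% to 70.6% in CON, and its part in the C6 values was not tested.

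Tail fat libraries also split by SELENOP and CCDC152. SELENOP was at 598 TPM in SA 1 (CCDC152 0.07 TPM) and 972 TPM in CON 2 (CCDC152 0.12 TPM), and SELENOP was at 46.0 to 197 TPM in the other 6 libraries. Within the first pair C6 was at 0.20 TPM in SA 1 and 1.69 TPM in CON 2. Within the other 6 it was at 0.05 to 0.59 TPM in SA and 1.35 to 3.39 TPM in CON. With 1 library of each diet in the first pair, the part of this split in the C6 values was not tested. CFB, the other gene tested, stood at 5.18, 4.85, 2.66 and 2.13 TPM in SA libraries 1 to 4, against 2.64, 6.66, 4.41 and 19.5 TPM in CON libraries 1 to 4. The diets overlapped, and the change of −0.72 (SE 0.53, limma adjusted p = 0.557) was −0.24 without CON 4. None of the 12 other complement genes tested in tail fat passed, where 0.697% of all genes passed in either direction.

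**Figure D5:**
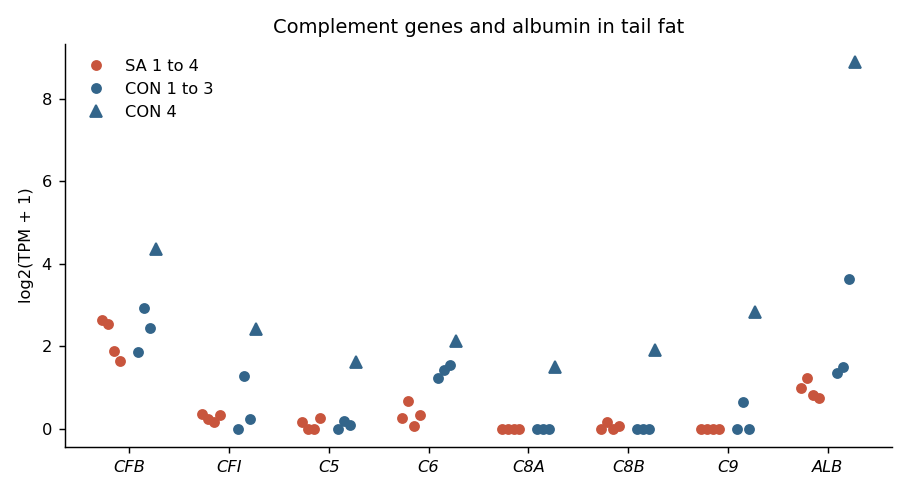
log2(TPM + 1) of the 7 complement genes and albumin (ALB) in the 4 SA and 4 CON libraries of tail fat, with the library CON 4 drawn as a triangle. CON 4 is the highest library for every gene shown, and the 4 SA libraries lie below CON 1 to 3 for C6 (0.05 to 0.59 against 1.35 to 1.89 TPM) and for ALB (0.68 to 1.34 against 1.54 to 11.3 TPM).

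Neuronal transcripts were present under both brain labels, hypothalamus and pituitary, where SNAP25, SYT1 and RBFOX3 summed to 436 to 1881 TPM. Defining hormones were nearly absent. AVP reached at most 1.41 TPM in libraries labelled hypothalamus, and in those labelled pituitary PRL reached at most 1.79 TPM and CGA was listed at 0. The hypothalamic list (3 of 4 found) summed to 4.08 to 6.39 TPM in SA and 4.22 to 5.34 TPM in CON under the hypothalamus label. Under the pituitary label it summed to 1.26 to 9.72 TPM in SA and 3.46 to 5.96 TPM in CON. There the anterior pituitary list (5 of 5) summed to 2.92 to 5.9 TPM in SA and 2.85 to 4.89 TPM in CON. Across these 16 libraries C5, C6, C8A, C8B and C9 lay between 0 and 0.76 TPM and were not tested. C8A and C8B were listed at 0 in all 8 libraries labelled hypothalamus.

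CFI and CFB were the genes measured above the filter in the brain. CFI stood at 11.5, 7.49, 23.5 and 15.0 TPM in SA libraries 1 to 4 labelled hypothalamus, against 17.2, 8.22, 13.3 and 20.5 TPM in CON libraries 1 to 4. The diets overlapped (change −0.08, SE 0.35, 95% interval −0.87 to 0.72, limma adjusted p = 0.987). In libraries labelled pituitary CFI stood at 17.2, 12.7, 33.1 and 37.1 TPM in SA 1 to 4, against 8.26, 19.7, 13.45 and 20.7 TPM in CON 1 to 4. These also overlapped (0.61, SE 0.39, 95% interval −0.22 to 1.43, adjusted p = 0.747). Choroid plexus markers (3 of 4 found) summed to 10.9 to 3096 TPM in SA and 25.8 to 467 TPM in CON of the libraries labelled pituitary, with 3096 TPM in SA 4 and 43.9 TPM in SA 3, the pair highest in CFI. Under the hypothalamus label they summed to 180 to 2399 TPM in SA and 8.27 to 227 TPM in CON, with 2399 TPM in SA 2, the lowest in CFI. The part of these cells in CFI was not tested.

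CFB lay between 2.53 and 8.0 TPM in the 16 brain libraries. It averaged 3.60 ± 1.07 TPM in SA and 4.16 ± 1.43 TPM in CON in libraries labelled hypothalamus (change −0.16, 95% interval −0.67 to 0.36, limma adjusted p = 0.961). In libraries labelled pituitary it averaged 5.43 ± 1.96 TPM in SA and 5.93 ± 1.75 TPM in CON (−0.12, 95% interval −0.76 to 0.51, adjusted p = 0.838). No member and no gene passed in limma in either label (0% of 14126 and 0% of 14472 genes). Unadjusted p under 0.05 was reached by 493 genes in hypothalamus and 218 in pituitary, and the limma fit of all 32 libraries called 3 and 4 genes. None of the 18 and 21 other complement genes tested there passed.

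Whether the diet effect differed between tissues was tested in the fit of all 32 libraries. The interaction of diet and tissue passed for all 7 genes (27% of 16360 genes), with limma adjusted p from 2.27e-11 for C8A to 0.0490 for CFB. A gene near 0 outside liver cannot fall there, so for C5, C8A, C8B and C9 the test sets a change in liver against tissues with no room for one. The same holds for C6 under both brain labels, where it lay at 0.09 to 0.76 TPM. In tail fat C6 had little room, at 1.35 to 3.39 TPM in CON. CFI had little room there too, at 0, 1.44, 0.17 and 4.30 TPM in CON 1 to 4. The liver change minus the tail fat change was −3.72 (SE 0.32) for C8A, −3.99 (SE 0.39) for C8B and −1.04 (SE 0.35) for C5, and these 3 passed as lower (24.9% of all genes). C6 did not pass (−0.65, SE 0.37, adjusted p = 0.193), with changes of −1.89 in liver and −1.25 in tail fat. With mitochondrial and ribosomal RNA taken out, the difference of C6 turned to 1.14 (SE 0.41) and passed as higher (adjusted p = 0.0318, with 25.4% of all genes higher), its changes being −0.80 in liver and −1.94 in tail fat. C5 no longer passed in that setting (0.31, adjusted p = 0.689), after quantile normalization (−0.02, adjusted p = 0.987) or with a pseudocount of 0.1 (−0.49, adjusted p = 0.689). C6, C8A and C8B passed the interaction test after quantile normalization (30.1% of all genes), without mitochondrial and ribosomal RNA (32.5%) and with a pseudocount of 0.1 (29.9%), and CFB, CFI, C5 and C9 passed under none of these settings.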

How the data were processed

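RNA was extracted with TRIzol, captured on oligo(dT) beads and sequenced as stranded libraries, per the labels' protocols. The tools named are RSEM, HISAT2 and fastp, per the submitters' processing notes. No tool version, genome build or strand setting was given in the sources used here. Which libraries of different tissues came from the same sheep was not stated in the labels either, so the joint fits treat libraries as separate. The TPM values deposited by the authors were used as they stand, with no scaling between libraries, and their columns summed to between 936939 and 987320. The 8 deposited group mean columns were not used. TPM hold no depth, so no counting interval was computed.

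Each tissue was fitted alone with limma 3.58.1 in R 4.3.3 on log2(TPM + 1), keeping genes that reached 1 TPM in 4 or more of the 8 libraries. Empirical Bayes moderation used a mean trend and robust settings, and two-sided p-values were adjusted by Benjamini-Hochberg over all genes tested, with a threshold of 0.05. This scale understates the change of low genes. An interaction fit used all 32 libraries and a tissue fit the 16 CON libraries. The planned ratio to C3 was replaced by the share of the sum of the 7 genes found, with C5 as a denominator added after seeing the data. The limma fits were tested on simulated data.

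Members, lists and tests were chosen with earlier results of these data known. Named genes are all members, the 12 listed complement genes of smallest p in liver, a fixed panel (C1QA, CFD, C4BPA and others), and the 2 nearest profiles per member. Same-numbered SA and CON libraries correlated between −0.342 and 0.289 (4 of 16 over 0.1), so numbers were not taken to pair sheep. A RefSeq table without Ensembl identifiers served only to see which genes are adjacent. The alternatives were another scaling, a pseudocount of 0.1, no filter, a replicate block, the joint fit and leaving out each library.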

Additional observations from a re-analysis of the deposited data

Results flagged for a closer look

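The diet effect differed between tissues for each of the 7 genes in the limma F-test of the interaction over 32 libraries, with an adjusted p of 0.00574 for C5, 0.000273 for C6, 2.27e-11 for C8A, 3.13e-10 for C8B, 0.0263 for C9, 0.0490 for CFB and 0.0128 for CFI. In the same test 27% of 16360 genes passed. After quantile normalization, without mitochondrial and ribosomal RNA, or with a pseudocount of 0.1, C5, C9, CFB and CFI did not pass. C5, C8A, C8B and C9 are near 0 outside liver, and C6 under both brain labels, so they had no room to fall there. In tail fat C6 and CFI had little room. Single libraries also lay far from the other 3 of their group, past a cut-off met by about 1 of 20 groups of normally distributed values. In tail fat this was CON 4 for C5 (2.05 TPM), C8A (1.82 TPM), C8B (2.73 TPM) and C9 (6.14 TPM). In liver it was CON 4 for C5, low at 221.64 TPM, and CON 2 for C9, high at 1273.95 TPM. The tail fat flags all come from 1 library, in groups otherwise near 0, where that rate does not apply. For C8A and C8B the other 3 CON libraries of tail fat were at 0, so any clearly higher value would be flagged.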

How the results depend on the processing

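TPM are relative and hold no depth, so no change in transcripts per cell can be read from them. Removing mitochondrial and ribosomal RNA moved the median change of all liver genes from −0.83 to 0.00, and C8A and C8B still passed. Of the 139 alternative counts of members past the threshold, 129 equalled the main count or stayed within 1.5 times of it. Many of these were counts of 0 that stayed at 0. Such were the diet counts under both brain labels and those of hypothalamus against pituitary. The 139 also include 2 counts of 0 for the planned ratio to C3, a gene not found. The total of 129 therefore says little about the counts above 0. In liver all 7 genes passed when any 1 library was left out. So did many other genes, from 6095 of 10734 (without CON 2) to 7488 of 11330 (without SA 4) in either direction. After removal of mitochondrial and ribosomal RNA 3 of the 7 passed, beside 14% of all genes as lower. In tail fat 1 gene, C6, passed after that removal (8.84% of all genes lower) and in the fit of all 32 libraries (7.21%). It also passed with the replicate block (limma adjusted p = 0.0343, with 2.15% of all genes passing as lower), and none passed without any 1 library. In the fits of tail fat alone, C6 met the filter only through its CON libraries, where it was higher. Those passes are therefore not independent of the filter. C6 left the filter, and had no value, without any 1 of the CON libraries. The replicate block changed no other member call. Within a tissue it matches SA and CON libraries of the same number, a pairing that the labels do not state. The interaction count was 3 of 7 after quantile normalization (30.1% of all genes), 3 after removal (32.5%) and 3 with a pseudocount of 0.1 (29.9%). It was 5 to 7 when 1 library was left out, and in the main fit 27% of all genes passed. The count for liver minus tail fat effects ranged from 2 to 6, where 24.9% of all genes passed as lower in the main fit. It was 6 without tail fat CON 4 and 2 without liver SA 2, liver SA 3, tail fat CON 1 or tail fat CON 3. In that contrast C6 changed sign after quantile normalization (0.39), removal (1.14, passing) and a pseudocount of 0.1 (0.76), as did C9 in all 3 (0.18, 0.56 and 0.39), and C5 (0.31) and CFB (0.33) after removal, none of these passing. Between tail fat and hypothalamus in CON the count ranged from 2 to 4, where 67.4% of all genes passed in the main fit. It was 4 without tail fat CON 1, 3 without tail fat CON 3 and 4 after quantile normalization. Changes of sign in the diet effect within a tissue, none of them passing, were CFI in hypothalamus (−0.34 to 0.17 when 1 library was left out, above 0 without SA 2, CON 1 or CON 4), CFB in hypothalamus (−0.27 to 0.0073, above 0 without CON 3) and CFB in pituitary (0.15 after quantile normalization, 0.084 after removal, and −0.30 to 0.058 when 1 library was left out, above 0 without SA 1). The cause of these moves was not tested. With 1 liver left out, the ratios to the sum of the 7 genes were recomputed as values only, without a test. They ranged from −2.50 to −1.86 for C8A and from −2.62 to −2.23 for C8B, and that of CFI was 0.04 without SA 2. No ratio was run in tail fat, where most members are near 0.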
